A study of Mus musculus with 4 samples.

Results

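The X-linked miRNA cluster described here comprises 10 mouse hairpins, mmu-mir-465a, mmu-mir-465b, mmu-mir-465c, mmu-mir-470, mmu-mir-471, mmu-mir-741, mmu-mir-743a, mmu-mir-743b, mmu-mir-871 and mmu-mir-881, written below as miR-465a and so on. Its reads were those of 18 nt or longer whose annotation named these hairpins and no other RNA, joined between libraries by sequence. All 10 hairpins had reads, of 376 miRNA hairpins read in the series. They gave 105 distinct sequences and 52489 reads, of 2783 sequences and 628608 miRNA reads in all.

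The series holds 4 small RNA libraries of C57BL mice, 2 labelled Mdd and 2 labelled control. The Mdd mice received unpredictable daily stressors, which included cage tilt, wet bedding, noise, strobe light, tube restraint, isolation and a disturbed light cycle. The control mice were left alone apart from feeding and cleaning. The study's stated question was what changes among the small non-coding RNAs of sperm in depressive-like males. The protocol describes RNA taken from sperm, whereas the tissue fields name testis and testicular cells. The labels do not say whether the replicates are different animals, so each p-value below reflects the variation of these 4 samples alone, part or all of which may be technical.

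A miRNA hairpin is cut into a short duplex, and either strand, named 5p or 3p after its arm, can be loaded into an Argonaute protein. Bases 2 to 8 of the loaded strand, the seed, pair with target mRNAs, so a shift of the 5′ end changes the seed whereas a shift of the 3′ end does not. This group of X-linked hairpins is known for expression in the testis, for rapid change between mammals and for members that stay active in spermatocytes while most X-linked genes are silenced. In bulk RNA such as this, fewer cells of a type and less RNA per cell cannot be told apart.

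The 10 names correspond to 12 hairpins in RefSeq (build GRCm38.p6), because miR-465b and miR-465c each have 2 copies. They lie on the minus strand at chrX:66776757-66839125, a run of 62369 nt. In the direction of transcription the run begins with the 5 miR-465 hairpins, within 13090 nt of the first start. It continues with miR-470 at 25100 nt, miR-871 at 28621 nt, miR-881 at 37104 nt, miR-741 at 42250 nt and miR-471 at 46464 nt. It ends with miR-743b at 61793 nt and miR-743a at 62307 nt. All 12 hairpins have the same ends in GENCODE M21, and 0 overlap a gene other than a miRNA. The nearest protein-coding gene is Slitrk2, 115364 nt away.

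The mature sequences behind most of the reads are given first, as RefSeq lists them, 5′ to 3′ with the seed in capitals. The set, made of miR-465-3p, which is identical in miR-465a, miR-465b and miR-465c, and of the 7 other most read arms, is:
miR-465-3p: gAUCAGGGccuuucuaaguaga
miR-465c-5p: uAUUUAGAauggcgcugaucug
miR-470-5p: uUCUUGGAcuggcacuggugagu
miR-471-3p: uGAAAGGUgccauacuauguau
miR-741-3p: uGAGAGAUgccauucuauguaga
miR-741-5p: uACGUAGAuugguaccuaucaug
miR-871-3p: uGACUGGCaccauucuggauaau
miR-871-5p: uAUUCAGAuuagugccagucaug
Of these 8 arms, 7 were read mainly from the RefSeq start, and miR-465-3p was not. miR-743a-5p, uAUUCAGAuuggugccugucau, has the seed of miR-871-5p.

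The libraries held 23748630 and 23806805 reads of 18 nt or longer in Mdd replicates 1 and 2, against 9706895 and 16763277 in control replicates 1 and 2. miRNA reads made up 0.838% and 0.395% of these in Mdd, against 0.741% and 1.57% in control. CPM values below, the usual scaled read counts, use the miRNA reads of 18 nt or longer as the total unless stated otherwise. A count of 3 reads, the floor used here, equals 15.1 and 31.9 CPM in Mdd, against 41.7 and 11.4 CPM in control. The usual number of copies of a distinct sequence was 44 and 7 in Mdd, against 6 and 10 in control, so reads are not independent molecules. Control replicate 2 stood apart in the marker lists. Its striated muscle miRNAs summed to 65737 CPM, against 3880 CPM in control replicate 1 and 1488 and 989 CPM in Mdd replicates 1 and 2. The erythroid list was lowest there, at 59564 and 50111 CPM in Mdd, against 46313 and 5718 CPM in control. The germ cell miRNAs miR-34b, miR-34c and miR-449a, which had reads in every library, summed to 257239 and 211465 CPM in Mdd, against 223610 and 103129 CPM in control.

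The cluster took 11.7% and 6.63% of miRNA reads in the Mdd libraries, against 10.9% and 5.78% in the control libraries. With reads divided by the usual copy number, the 95% Wilson intervals were 10.7% to 12.6% and 6.22% to 7.06% in Mdd, against 10.3% to 11.5% and 5.50% to 6.07% in control. Each group thus held a library near 11% and a library near 6%, and by reads the groups overlapped. The summed level was 91422 ± 35527 CPM in Mdd and 83315 ± 36082 CPM in control (SD, n = 2 each). The difference of 8107 CPM was smaller than the spread within either group (exact two-sided permutation p = 0.667, where 0.33 is the smallest that 2 against 2 samples allow). It turned to -17407 CPM without control replicate 2 and to -17014 CPM without Mdd replicate 1. As shares of all reads of 18 nt or longer, the cluster stood at 976 and 262 CPM in Mdd, against 806 and 909 CPM in control. On that scale the difference was -239 CPM (exact p = 1). With distinct sequences counted once each, scaled to the distinct miRNA sequences as CPM scales reads, the cluster stood at 58468 and 58929 in Mdd, against 51936 and 37306 in control. There the Mdd libraries lay above the control libraries, by 14077 on average (exact p = 0.33). The libraries held 992 and 1120 distinct miRNA sequences in Mdd, against 1059 and 2064 in control. Of these, 58 and 66 in Mdd and 55 and 77 in control were of the cluster. The part of depth in this difference was not tested. Control replicate 2, where the cluster took its lowest share of miRNA reads, also had the lowest germ cell sum and the highest muscle sum. Mdd replicate 2, where the share was 6.63%, had a germ cell sum of 211465 CPM and the lowest muscle sum, 989 CPM. The part of these marker sums in the result was not tested.

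Levels spanned a wide range within the run. miR-465, summed over its copies, had 55779 and 21817 CPM in Mdd, against 57731 and 21225 CPM in control. It was the most read hairpin family of the cluster in all 4 libraries. miR-470 had 27852 and 18072 CPM in Mdd, against 25869 and 9865 CPM in control. Between the highest and lowest library miR-465 varied 2.72-fold and miR-470 2.82-fold, and both were higher in replicate 1 of each group. miR-871 had 12742 and 12839 CPM in Mdd, against 11265 and 10791 CPM in control. miR-471 had 10797 and 8084 CPM in Mdd, against 8734 and 9979 CPM in control. miR-871 stayed within 1.19-fold and miR-471 within 1.34-fold, so the pattern of miR-465 and miR-470 was not shared by every hairpin of the run.

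The other hairpins were read less. miR-741 had 5796 and 4127 CPM in Mdd, against 3727 and 4239 CPM in control. miR-881 had 1905 and 351 CPM in Mdd, against 1057 and 906 CPM in control. Mdd replicate 2 held both the lowest miR-881 value and only 33 of its reads. miR-743a had 1669 and 702 CPM in Mdd, against 278 and 489 CPM in control, from 332 and 66 reads against 20 and 129. Divided by the usual copy number, these reads came to only 7.5 and 9.4 in Mdd, against 3.3 and 12.9 in control. miR-743b had 5.03 and 308 CPM in Mdd, against 167 and 307 CPM in control. The first of these values is 1 read and lies under the floor. In the order of mean levels, miR-471 lay above miR-741 and miR-741 above miR-881 with no overlap of their ranges. The ranges of the other neighbours overlapped across libraries. Within each library, however, miR-465 was above miR-470, miR-871 above miR-471 and miR-743a above miR-743b in 4 of 4. Among neighbours in this order, miR-470 and miR-871 turned round in control replicate 2, and miR-881 and miR-743a in Mdd replicate 2.

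**Figure D1:**
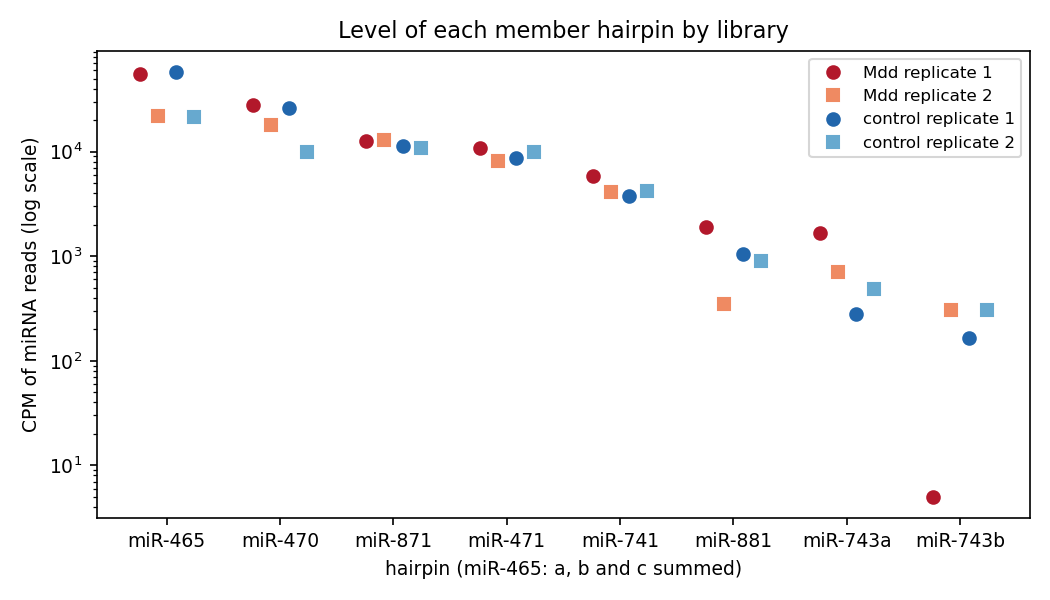
Level of each hairpin in each library, in CPM of miRNA reads of 18 nt or longer on a log axis, with Mdd left of control. miR-465 lies between 21225 and 57731 CPM, and the miR-743b value of Mdd replicate 1, at 5.03 CPM, rests on 1 read.

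The make-up of the cluster shifted between libraries with miR-465. It gave 47.9% and 32.9% of cluster reads in Mdd, against 53.0% and 36.7% in control. miR-871 ran the other way, with 10.9% and 19.4% in Mdd, against 10.4% and 18.7% in control. In both groups replicate 1 had more miR-465 and less miR-871. miR-470 gave 23.9% and 27.3% in Mdd, against 23.8% and 17.1% in control. Without the miR-465 names the cluster summed to 60765 and 44484 CPM in Mdd, against 51097 and 36577 CPM in control, and the groups still overlapped.

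**Figure D2:**
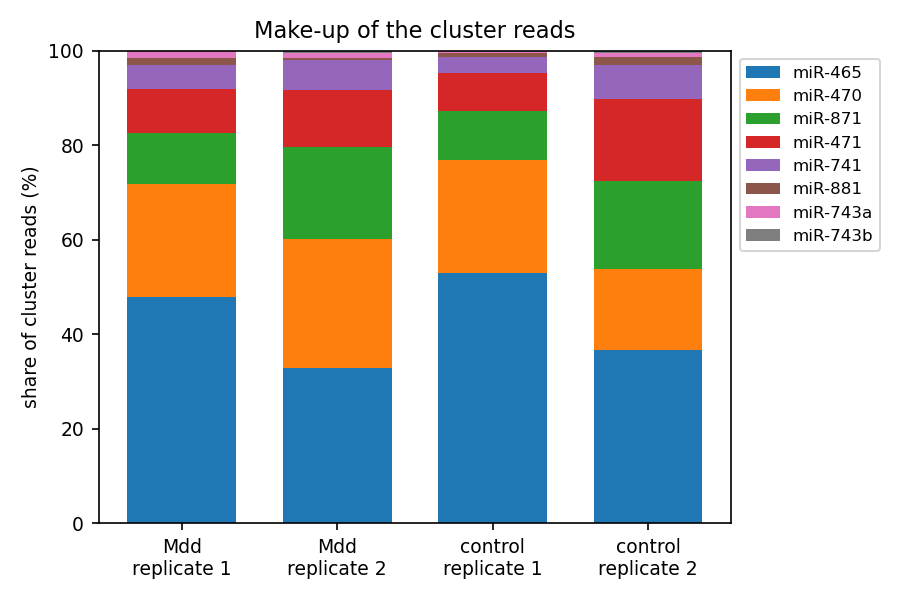
Share of each hairpin in the reads of the cluster, in percent, as stacked bars for each library, Mdd left of control. miR-465 takes 32.9% to 53.0% and miR-871 takes 10.4% to 19.4%.

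The 3p strand of miR-465 cannot be assigned to a single copy, since its mature sequence is the same in all of them. The joint name miR-465a/miR-465b/miR-465c held 10243 and 1853 reads in Mdd, against 4002 and 5020 reads in control. Reads that start 2 bases before the RefSeq end were named miR-465a/miR-465b alone. That name held 1 and 19 reads in Mdd, against 0 and 0 in control, and was not tested. The 5p strands differ at positions 13, 14 and 20, counted from the 5′ end and set in capitals here to show what separates the copies:
miR-465a-5p: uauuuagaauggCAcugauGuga
miR-465b-5p: uauuuagaauggUGcugauCug
miR-465c-5p: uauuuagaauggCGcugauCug
Among 5p reads, miR-465c had 82.3% and 86.6% in Mdd, against 79.9% and 69.0% in control. miR-465b had 17.7% and 13.4% in Mdd, against 12.1% and 30.1% in control. miR-465c was thus the main source of 5p reads in every library. miR-465a had 0 of 853 and 0 of 179 reads in Mdd, which allows a share of up to 15.5% and 11.7% with 3 times the usual copy number as the floor. In control it had 12 of 149 and 5 of 578 reads, or 8.05% and 0.865%. Both control shares lie under the limits of the Mdd libraries, so no difference was detectable at this depth.

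miR-465-3p was read in 2 main forms that differ at the 5′ end. They are shown with the RefSeq sequence, the 5 bases that only the longer form has in capitals:
miR-465-3p in RefSeq: gaucagggccuuucuaaguaga
longer form: TGATCagggcctttctaagtaga
shorter form: agggcctttctaagtaga
The longer form, of 23 nt, starts 1 base before the RefSeq end and carries the seed GAUCAGG. It had 3394 and 761 reads in Mdd, against 1339 and 1582 reads in control. The shorter form, of 18 nt, starts 4 bases after the RefSeq end and has GGGCCUU at bases 2 to 8. It had 4401 and 641 reads in Mdd, against 1661 and 2010 reads in control. The shorter form was the more read in 3 of the 4 libraries, and Mdd replicate 2 was the exception. The RefSeq start itself was found in 0.0142% of miR-465-3p reads. Over all 3′ ends, the shorter start took 43.0% and 34.2% of reads in Mdd, against 41.5% and 40.0% in control, and the groups overlapped (38.6% ± 6.17 against 40.8% ± 1.05, SD, n = 2 each).

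The short and long forms shared their 3′ ends. At the RefSeq 3′ end the ratio of 18 nt to 23 nt reads was 1.30 and 0.842 in Mdd, against 1.24 and 1.27 in control. At a 3′ end 1 base shorter, the ratio of 17 nt to 22 nt reads was 0.573 and 0.669 in Mdd, against 0.634 and 0.644 in control. A ratio of the 2 starts thus differed between 3′ ends as well as between libraries. The 3′ end also sets the read length, and reads of 17 nt lie under the stated selection of 18 to 40 nt. An effect of the 3′ end and one of read length cannot be told apart here. Over 111 miRNA names with at least 500 reads, miR-465a/miR-465b/miR-465c had the highest share of reads shortened by at least 3 bases at the 5′ end, at 41.4%. The next were miR-3535 at 40.3% and miR-34b at 15.5%. The median was 0%, and 3 names exceeded 10%. Since 17 nt and 15 nt reads fall under the 18 nt limit, the limit removes part of the shorter form. The share of 15 to 17 nt reads in miR-465-3p was 12.0% and 12.1% in Mdd, against 13.6% and 14.9% in control. In the whole libraries that share was 1.18% and 1.27% in Mdd, against 24.4% and 27.0% in control, although the protocol states a selection of 18 to 40 nt. How far the length limits of the deposited reads differ between the groups was not tested. With all lengths, the shorter start took 49.8% and 42.2% in Mdd, against 49.1% and 48.8% in control.

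**Figure D3:**
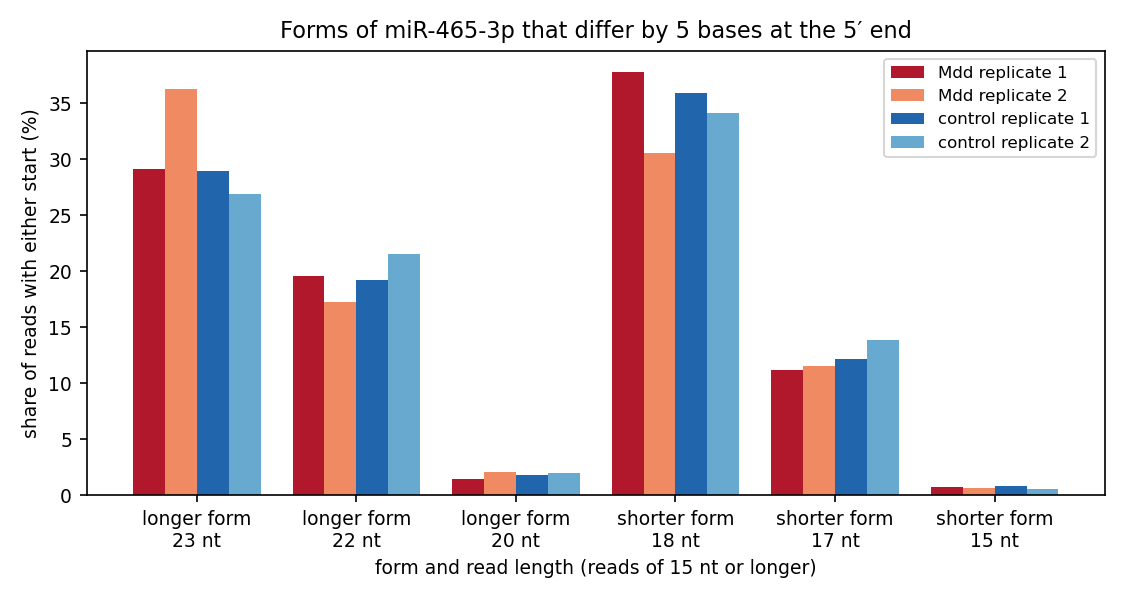
Share of miR-465-3p reads of 15 nt or longer in the longer and the shorter form at each 3′ end, in percent of reads with either start, with Mdd left of control. The 18 nt form takes 30.5% to 37.8% and the 23 nt form 26.9% to 36.3%.

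miR-881-5p was the other arm read away from its RefSeq start, and its sequences are shown because the shift gives it the seed of other members. The 4 bases that precede the RefSeq end are in capitals:
miR-881-5p in RefSeq: cagagagauaacagucacaucu
most read form: TATTcagagagataacagtca
Of 294 reads of this arm, 98.6% started 4 bases before the RefSeq end and 0% at it. The seed of these reads is AUUCAGA, which miR-743a-5p and miR-871-5p also have. The 3 arms together had 6229 reads. Reads with that seed made up 9.12% and 16.1% of the cluster in Mdd, against 5.66% and 16.2% in control. The most read seed was GAUCAGG, of the longer miR-465-3p form, in 3 libraries, at 25.2% and 19.3% in Mdd, against 29.8% and 19.6% in control. UCUUGGA, of miR-470-5p, came first in Mdd replicate 2 and took 23.6% and 27.0% in Mdd, against 23.8% and 17.0% in control. The 3 miR-465 5p strands share AUUUAGA, and miR-743a-3p and miR-743b-3p share AAAGACA.

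The share of reads from each strand differed between hairpins. miR-465 was read mainly from the 3p arm, at 92.3% and 91.3% in Mdd, against 96.4% and 89.7% in control. miR-471 likewise had 86.9% and 89.6% in Mdd, against 96.8% and 94.5% in control. miR-470 was the opposite: its 3p arm had 0 reads in both Mdd libraries and in control replicate 1. With 3 times the usual copy number as the floor, a count of 0 there allows a share of up to 2.38% and 1.24% in Mdd, against 0.968% in control replicate 1. Control replicate 2 had 9 reads of miR-470-3p, or 0.346%. miR-871 gave 33.3% and 16.7% from the 3p arm in Mdd, against 49.5% and 18.4% in control, and replicate 1 was the higher in both groups. miR-881 gave 54.6% and 87.9% in Mdd, against 75.0% and 58.6% in control. miR-743a gave 0.301% and 40.9% in Mdd, against 0% and 9.30% in control. The values of miR-881 and miR-743a rest on few reads, down to 33 and 20 in a library.

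miR-741 was read from both arms in every library. Its 3p arm had 42.7% and 50.5% of reads in Mdd, against 71.3% and 62.4% in control (46.6% ± 5.55 against 66.9% ± 6.25, SD, n = 2 each). The Mdd libraries lay below the control libraries, and the exact permutation p was 0.33, the smallest possible. With each distinct sequence counted once in place of its reads, the difference was -0.83 percentage points and the groups overlapped (exact p = 1). Such a count describes the variety of sequences and not how much each arm was read, so it cannot decide on the read share. Over the usual copy number the Wilson intervals were 25.5% to 61.1% and 38.1% to 63.6% in Mdd, against 56.6% to 82.3% and 53.3% to 70.9% in control, which overlap. Of the 7 member hairpins with at least 20 reads in every library, miR-741 and miR-471 were lower in both Mdd libraries and 0 were higher. Over distinct sequences the groups overlapped for miR-471 too (exact p = 0.667). Over 96 hairpins of the series, 14.6% were lower and 11.5% higher in both Mdd libraries, and 7 members are few to set beside those shares.

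**Figure D4:**
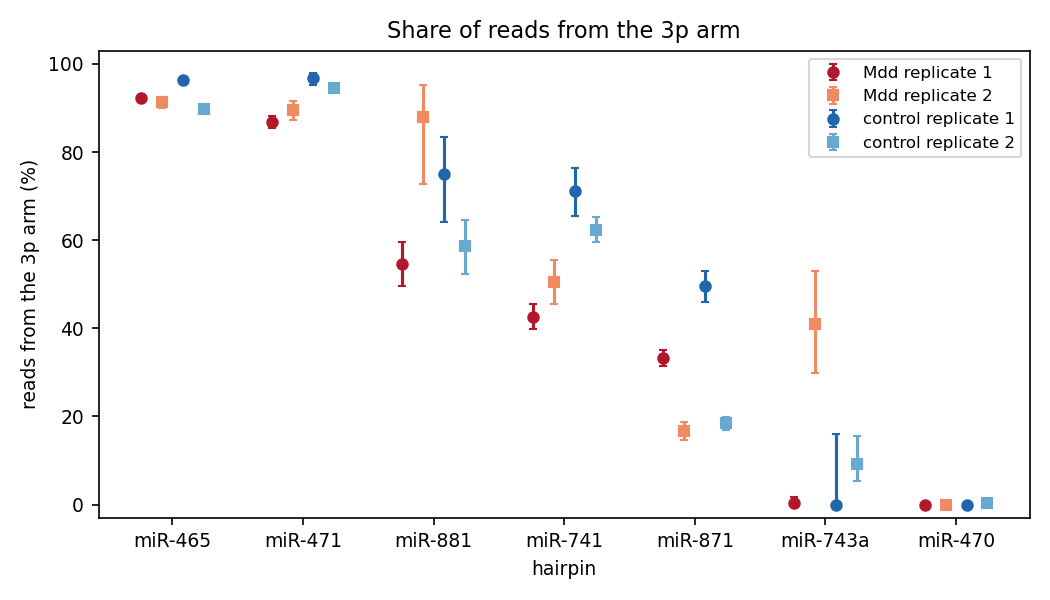
Share of reads from the 3p arm for each hairpin with at least 20 reads in every library, in percent, with Mdd left of control and Wilson intervals over reads. miR-741 lies at 42.7% and 50.5% in Mdd, against 71.3% and 62.4% in control.

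The 5′ ends of the other arms varied less than those of miR-465-3p. Among 8 arms with at least 50 reads in every library, miR-470-5p started at its usual base in 98.7% and 99.1% of reads in Mdd, against 100% and 99.96% in control. miR-871-5p did so in 95.3% and 95.5% in Mdd, against 99.8% and 97.1% in control. miR-741-3p did so in 85.8% and 97.4% in Mdd, against 80.6% and 76.2% in control. The groups did not overlap in these 3 arms, with 2 lower and 1 higher in Mdd, each at the smallest exact p of 0.33. Over distinct sequences, a measure of variety and not of read share, the groups overlapped for miR-470-5p and miR-741-3p (exact p = 1 for both). They did not overlap for miR-871-5p. miR-471-3p, whose groups overlapped, started at its usual base in 97.8% and 94.3% in Mdd, against 84.9% and 95.1% in control. Over 82 arms of the series the groups did not overlap with Mdd lower in 7.32% and with Mdd higher in 11%. miR-741-3p was the arm with the most varied starts of these 3.

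Mean read lengths differed between the groups by less than 1 nt in each of the 8 arms. The libraries differed most for miR-741-5p, at 22.6 and 23.7 nt in Mdd, against 22.5 and 23.9 nt in control, with overlap. miR-871-5p averaged 22.7 nt in both Mdd libraries, against 22.9 nt in both control libraries. miR-465c-5p averaged 20.88 and 21.07 nt in Mdd, against 21.39 and 21.13 nt in control. miR-871-3p averaged 22.775 and 22.219 nt in Mdd, against 22.155 and 22.214 nt in control, a gap of under 0.01 nt between the nearest libraries. Of the 8 arms, 2 were shorter and 1 was longer in Mdd with no overlap, against 17.1% and 13.4% of the 82 arms of the series. The exact p of each was 0.33. Over distinct sequences, again a measure of variety, the groups overlapped for miR-465c-5p and miR-871-3p (exact p = 1 for both). With inexact matches the separation was lost for miR-871-3p (exact p = 0.667).

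The comparison of Mdd with control was then made on all miRNA names. Of 236 names, edgeR's quasi-likelihood test with Benjamini-Hochberg adjustment called 0% at an adjusted p of 0.05, and 11 names had an unadjusted p under 0.05. Of the 12 member names, 10 passed the filter on low counts. Of these, 0 were called, and 0 had an unadjusted p under 0.05. DESeq2 called 2.97% of all names and 0 of the members. The log2 fold change of the joint miR-465 name was 0.06 ± 0.86 (SE, n = 2 each). It was 0.47 ± 0.74 for miR-470, 0.26 ± 0.64 for miR-871, 0.05 ± 0.64 for miR-471 and 0.36 ± 0.65 for miR-741. The standard errors of these 5 exceed the changes. The smallest change that could be told from 0 was not measured, and much larger changes were also missed. The striated muscle name miR-133a/miR-133b, at -8.87 ± 1.91, was not called either (edgeR adjusted p = 0.158). Among the members, the largest value was that of miR-743a, at 1.65 ± 1.13 (edgeR adjusted p = 0.952). The only negative one among them was that of miR-743b, at -0.67 ± 2.07.

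Of the 10 tested names, 9 had a positive log2 fold change and 1 a negative one, with a median of 0.28, against 113 positive, 123 negative and a median of -0.04 over all 236 names. These directions depended on the scaling. With all reads of 18 nt or longer as the library size, 1 of the 10 was positive and their median was -0.51, while the median over all names was -1.10. By CPM of miRNA reads, miR-743a and miR-871 were higher in both Mdd libraries and 0 members were lower, against 16.5% higher and 21.6% lower over all names. By CPM of all reads, 0 were higher and miR-743b was lower, against 4.24% higher and 37.7% lower over all names. The 2 of 10 is near the 16.5% of all names and is not a result about the cluster.

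**Figure D5:**
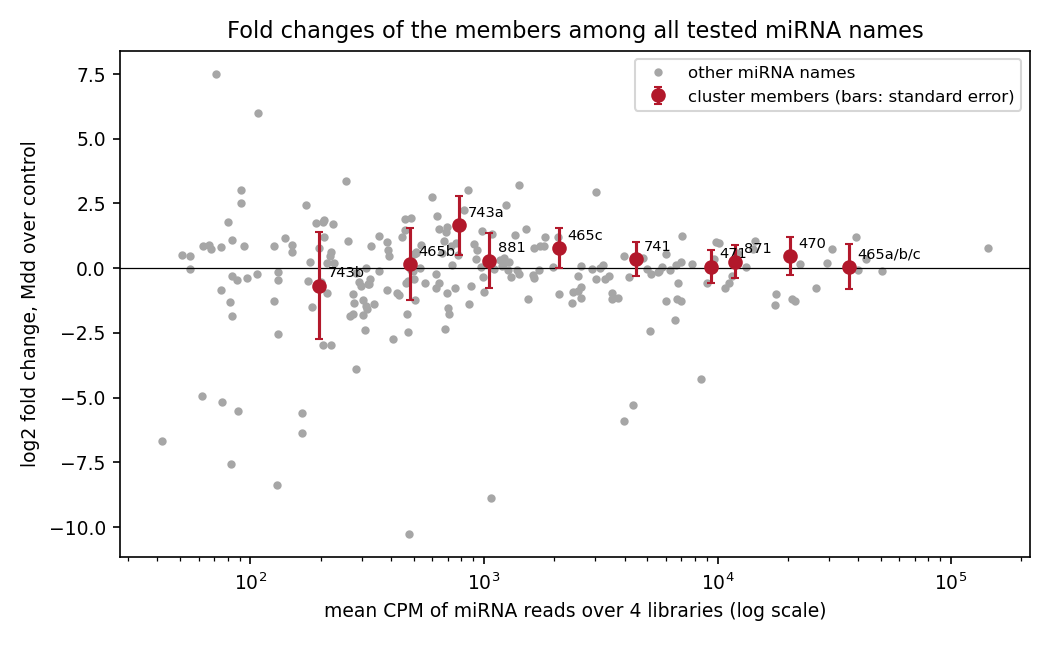
Log2 fold change of Mdd over control against mean CPM (log axis) for 236 miRNA names, with the 10 tested member names marked and their standard errors as bars. The bars of 9 member names cross 0, the exception being miR-743a at 1.65 ± 1.13.

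Other miRNA genes lie within the same run, 7 of them between the members. Of a list of 10 neighbouring X-linked hairpins, 8 had reads and 5 were tested. Of these, 0 were called and 0 had an unadjusted p under 0.05, while 4 were positive and miR-201 negative, at -0.14 ± 2.64 (SE), with a median log2 fold change of 0.26. miR-201 had 0 and 266 CPM in Mdd, against 0 and 258 CPM in control. miR-883a had 1337 and 1415 CPM in Mdd, against 1196 and 1168 CPM in control. miR-463 had 1619 and 787 CPM in Mdd, against 1349 and 1020 CPM in control. miR-878 had 699 and 1362 CPM in Mdd, against 779 and 853 CPM in control. miR-880 had 528 and 1287 CPM in Mdd, against 695 and 588 CPM in control. These last 4 were read below miR-741 in every library. The 3 neighbours not tested were miR-742, with 1 and 30 reads in Mdd against 0 and 6 in control, and miR-547 and miR-883b, which had 6 and 26 reads in control replicate 2 and 0 elsewhere.

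The miRNA names whose levels followed the summed cluster most closely were sought over the 4 libraries, by the root mean square difference of centred log2 CPM over 209 names. They were miR-3470b at 0.15, miR-375 at 0.18 and let-7a at 0.19. miR-3470b had 9822 and 5978 CPM in Mdd, against 10820 and 4345 CPM in control. let-7a, a member of the widely expressed let-7 family, had 41946 and 19030 CPM in Mdd, against 40875 and 15989 CPM in control. Since they were chosen for likeness to the cluster, these were also higher in replicate 1 of each group. With 4 libraries such likeness is a description only.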

How the data were processed

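Small RNA of 18 to 40 nt was sequenced with an MGIEasy kit, per the labels' protocols. Per the file headers, the deposited tables give 1 row per distinct sequence with its length, genome match, annotation and raw read count, made by the authors. The submitters' processing notes name the mm9 build and DESeq2, without a version. Which aligner and trimming the authors applied is not given in the sources used here. Coordinates and mature ends are those of RefSeq on GRCm38.p6, matched by sequence, and no coordinate was converted.

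Tables were joined by sequence, and each sequence took its annotation from any library that gave one, which changed 0 member reads. Reads of 18 nt or longer were added up by hairpin name, dropping the number of a gene copy and leaving joint names as they are. Counts were tested with edgeR 4.0.16 in R 4.3.3 (quasi-likelihood, TMM, filterByExpr, two-sided, Benjamini-Hochberg over 236 names, threshold 0.05). The standard errors of the edgeR log2 fold changes were derived from the test, as the absolute change over the square root of the quasi-likelihood F statistic. DESeq2 1.42.0 was an alternative. Shares and lengths were compared by exact two-sided permutation of samples. Wilson 95% intervals and the floor of 3 reads, multiplied by the usual copy number for shares with a count of 0, cover counting error only. The usual copy number comes from the sequences of 18 nt or longer with a genome match, counted at each read count. It is the read count at the peak beyond the first minimum, after smoothing over neighbouring counts. On simulated data, 47 of 47 names changed by 4 on the log2 scale were recovered among 232, with 3 false calls. The changed names were drawn from the better read ones, and the simulated spread between libraries was a set value, not estimated from these data. The simulation thus checks the code and does not measure the power to find smaller changes in these libraries. Python 3.11.15, pandas 2.3.3, scipy 1.17.1 and matplotlib 3.10.9 were used for tables and plots.

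Depth was 71902 to 263748 miRNA reads a library. The members, lists and alternatives were chosen with earlier results of these data known. Named miRNAs were all members, the most read sequence of each arm, the listed X-linked neighbours with reads and the 3 names most like the summed cluster. Alternatives were other scalings, tests, filters, lengths and annotation, the replicate number as a block, inexact matches, distinct sequences and each library left out. Reads divided by the usual copy number and the sum without miR-465 were chosen after seeing the data.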

Additional observations from a re-analysis of the deposited data

How the results depend on the processing

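Under every alternative tried, including each library left out, 0 of the member names tested were called. With reads divided by the usual copies, 7 member names were tested, and miR-743a, miR-743b and miR-465b were not among them. Of all names, 0 were called higher or lower as reported. Names called lower numbered 5 with the library size of all reads, 5 with DESeq2, 5 with no filter, 5 with a mean CPM of at least 10, 4 with the replicate block, 1 with all read lengths and 2 with reads divided by the usual copies. Names called higher numbered 2 with DESeq2, 1 with no filter, 1 with a mean CPM of at least 10 and 2 with divided reads. With each library left out, 0 to 13 were called lower and 0 to 3 higher, the most without Mdd replicate 2; the lone library of a group is then assumed to vary like the other group.

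Over all 236 names, same-numbered libraries did not deviate together (r = -0.03), and the labels do not pair them. The summed cluster was nevertheless higher in replicate 1 of each group. Under the replicate block the log2 fold change of miR-881 turned to -0.20 and that of miR-743b was -2.14. The joint miR-465 name turned to -0.069 with the miRNA total as library size and no further scaling, -0.48 with the total of all reads and -0.019 with divided reads. With the library size of all reads, the others turned to -0.73 (miR-465b), -0.00048 (miR-465c), -0.19 (miR-470), -0.86 (miR-471), -0.54 (miR-741), -0.69 (miR-871) and -0.35 (miR-881). That setting also lowered the median of all names to -1.10.

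With 1 library left out, log2 fold changes ranged over -0.89 to 0.83 (joint miR-465), -0.95 to 1.19 (miR-465b), -0.020 to 1.13 (miR-470), -0.26 to 0.41 (miR-471), 0.024 to 1.36 (miR-465c), 0.0019 to 0.74 (miR-741), 0.78 to 2.31 (miR-743a), -5.20 to 0.29 (miR-743b) and -1.51 to 1.16 (miR-881). The summed level's difference was 14077 over distinct sequences (scaled as CPM scales reads), with no overlap, 13631 CPM with all read lengths, -239 CPM on the scale of all reads, and -17407 to 33621 CPM with 1 library left out.

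Differences in 3p share ranged over -4.62 to 2.12 (miR-465), -0.346 to 0 (miR-470), -8.76 to -6.03 (miR-471), -24.7 to -15.8 (miR-741), -4.35 to 36.3 (miR-743a), -24.5 to 6.56 (miR-871) and -12.2 to 21.1 (miR-881) percentage points with 1 library left out, and over distinct sequences they were -0.83 (miR-741), -17.4 (miR-471) and 0 (miR-881), with overlap in each, and -7.93 (miR-871) with none. Differences in the share of the usual 5′ end ranged over -1.89 to 5.24 (miR-465-3p), -1.32 to -0.922 (miR-470-5p), 0.905 to 11.2 (miR-471-3p), 7.35 to 19.0 (miR-741-3p), 0 to 2.14 (miR-741-5p), -0.0592 to 2.42 (miR-871-3p) and -4.33 to -1.64 (miR-871-5p), and were -2.14 for miR-741-5p with inexact matches. Over distinct sequences they were -4.17 (miR-871-3p), -6.25 (miR-470-5p) and 3.47 (miR-741-3p), with overlap in each. Differences in mean length ranged over -0.0508 to 0.302 (miR-465-3p), -0.412 to -0.158 (miR-465c-5p), -0.165 to 0.0190 (miR-470-5p), -0.108 to 0.0689 (miR-471-3p), -0.450 to 0.284 (miR-741-3p), -0.769 to 0.599 (miR-741-5p), 0.0347 to 0.591 (miR-871-3p) and -0.189 to -0.148 (miR-871-5p) nt, and over distinct sequences 0.37 (miR-741-3p), -0.25 (miR-465c-5p) and 0.083 (miR-871-3p) with overlap, and -1.29 (miR-470-5p) with none. With inexact matches that of miR-871-3p was 0.29 with overlap. For the settings that changed a value, the cause was not tested. The precision of the lesser read members is limited by depth, at 1 to 81 reads a library for miR-743b.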

Other observations

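Sequences that matched a member hairpin inexactly held few reads over the members as a whole. Sequences with 1 mismatch numbered 65, with 28 and 32 reads in Mdd, against 21 and 67 reads in control. Sequences with up to 3 untemplated bases at the 3′ end numbered 43, with 10 and 34 reads in Mdd, against 26 and 139 reads in control. Pooled over the members, neither kind exceeded 0.912% of the exact reads in a library. Among arms with such reads, both kinds together ranged from 0.254% of the exact reads for miR-741-3p to 8.48% for miR-743a-5p. Among members other than miR-465-3p, reads of 15 to 17 nt made up 0% and 0.252% in Mdd, against 0.520% and 0.776% in control. Of the 105 member sequences, 31 were read in all 4 libraries, and each library held 58 and 66 in Mdd, against 55 and 77 in control.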
